A study of Mus musculus with 12 samples.

Results

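The 10 genes described here encode the parts of desmosomes, and they were matched by gene symbol in each of the deposited tables. They are Dsg2, Dsg3, Dsc2, Dsc3, Jup, Pkp1, Pkp2, Pkp3, Dsp and Perp. All 10 were found in each, among 17885 genes for Eed iKO and control and 21915 for anagen and telogen, and all 10 passed the filter on low values in both tables. RNA was sequenced from hair follicle stem cells (HFSCs) of C57BL/6J mouse back skin, sorted as EpCAM+, Sca1-, CD34+ cells with high α6-integrin, in 3 libraries for each of 4 groups. Control (labelled wildtype) and Eed iKO (labelled Eed -/-) HFSCs came from mice of postnatal day 70. Eed iKO mice carry floxed Eed alleles and K15-CrePGR, a Cre driven by the Keratin 15 promoter that topical RU-486 switches on in the bulge, so cells outside the reach of that promoter keep Eed. In the study's scheme for mice analysed at day 70, RU-486 was given daily for 7 days from day 50. Per its methods control mice received the ethanol vehicle, so RU-486 itself and the targeting of Eed cannot be told apart. Whether control mice carried floxed alleles is not given in the sources used here. Eed is a core subunit of the Polycomb Repressive Complex 2 (PRC2), which places the repressive histone mark H3K27me3. Anagen HFSCs came from wildtype mice of days 28 to 30 and telogen HFSCs from wildtype mice of days 50 to 52, so age and hair cycle stage cannot be told apart. One comparison asks how desmosome genes are expressed in HFSCs of Eed iKO mice, and the other how they are expressed in activated (anagen) and quiescent (telogen) HFSCs.

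Desmosomes are spot-like junctions that tie the keratin filaments of neighbouring cells together and give epidermis and hair follicles their resistance to pulling. Desmogleins (Dsg) and desmocollins (Dsc) are cadherins that bridge the gap between cells. Their tails bind plakoglobin (Jup) and the plakophilins (Pkp), armadillo proteins that in turn hold desmoplakin (Dsp), and desmoplakin grips the keratins. Perp is a small membrane protein that desmosomes of stratified epithelia need and whose gene is a target of p63. In skin, Dsg3 and Dsc3 are the cadherins of basal cells, and mice without Dsg3 shed their hair in telogen.

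The 4 cadherin genes are neighbours, and the other members are spread over separate chromosomes of GRCm38. Dsp (ENSMUSG00000054889.10) lies on chromosome 13 from 38151294 to 38198577 on the plus strand, and Jup (ENSMUSG00000001552.14) on chromosome 11 from 100368958 to 100397763 on the minus strand. Pkp1 (ENSMUSG00000026413.12) lies on chromosome 1 from 135871395 to 135919207 on the minus strand. Some exon bases are shared with another annotated gene in Dsp (5.17%, with Gm10129) and Dsg2 (3.99%, with Gm16090), so reads from those bases are uncertain.

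RefSeq promoters of GRCm38.p6, each running from 250 bases before the start to 50 bases after it, were matched for 2 members, Dsp and Jup. Promoters of the cadherin genes were left out by choice. Among the other members, only the promoters of Dsp and Jup were available. Capitals mark the GC box, GGGCGG on either strand.
Dsp, chr13:38151044-38151343, plus strand: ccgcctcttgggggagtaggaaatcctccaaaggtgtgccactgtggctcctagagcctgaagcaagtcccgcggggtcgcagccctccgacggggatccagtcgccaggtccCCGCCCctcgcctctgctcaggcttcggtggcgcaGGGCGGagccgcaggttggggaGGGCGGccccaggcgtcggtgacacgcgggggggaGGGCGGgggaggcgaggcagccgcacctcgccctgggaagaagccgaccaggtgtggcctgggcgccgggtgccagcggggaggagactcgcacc
Jup, chr11:100397741-100398040, minus strand: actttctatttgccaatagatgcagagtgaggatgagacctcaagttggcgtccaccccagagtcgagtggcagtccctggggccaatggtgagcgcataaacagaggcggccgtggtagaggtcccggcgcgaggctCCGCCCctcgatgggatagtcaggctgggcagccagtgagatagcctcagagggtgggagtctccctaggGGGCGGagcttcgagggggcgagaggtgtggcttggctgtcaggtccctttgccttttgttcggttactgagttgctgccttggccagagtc
The Dsp promoter is the more GC-rich (73% against 60.7%, with a median of 52.7% over 32851 promoters of the same length) and holds 27 CpG dinucleotides against 14 in Jup and a median of 7. It holds 4 GC boxes and Jup 2, and 35.7% of all promoters hold at least 1. The CCAAT box (CCAAT) occurs 2 times in Jup and in 37.4% of promoters, but not in Dsp. The E-box (CANNTG) occurs 1 time in Dsp and in 72.3% of promoters, and the decamer bound by the p53 family (by name) occurs 1 time in Dsp and in 8.36% of promoters. Neither window holds the TATA box (TATAAA, 13.6% of promoters) or the AP-1 site (TGANTCA, 7.81%). All motifs were searched on both strands, and such matches describe the letters only.

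Control and Eed iKO libraries held 33269583 to 57063586 reads on genes, and for anagen and telogen libraries the depth is unknown. Values are normalized counts, that is counts scaled to even out library depth. Bulge markers (10 of 10 found, with Krt15, Cd34 and Itga6 among them) summed to 179723 or more in every library. Telogen replicate 1 stood apart, with a summed bulge marker level of 179723 against 390232 and 457622 in the other telogen libraries. Krt15 makes up most of these sums, at 142406 in telogen replicate 1 and 416765 and 350444 in telogen replicates 2 and 3. The gap lies mainly in that keratin and does not describe the bulge markers as a set. Values without telogen replicate 1 are given for members and for genes whose result turns on it. The targeted gene itself did not fall in Eed iKO libraries (Eed at 1099 ± 229.9 against 1095 ± 149.6, SD, n = 3 each, log2 fold change -0.01, limma adjusted p = 0.993), so directions given for them rest on the labels. By other assays the study reports lower Eed mRNA (RT-qPCR of sorted HFSCs) and loss of H3K27me3 (immunofluorescence) in Eed iKO mice. Those assays were not analysed here. In bulk RNA, fewer cells of a type and less RNA per cell cannot be told apart.

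HFSCs expressed a full set of desmosome parts, in which the epidermal isoforms far exceeded the isoforms known from heart and simple epithelia. Levels of different genes were compared as normalized counts per kilobase of the transcript with the longest coding sequence, within each table. Over the 6 libraries of the Eed iKO table, Perp was highest at 48986 ± 4945 (SD, n = 6). Dsp followed at 33679 ± 5802 and Dsc3 at 21457 ± 1335. Perp exceeded Dsp in all 6 libraries although their ranges touched, and Dsp exceeded Dsc3 with no overlap. Jup (12382 ± 1317) and Dsg3 (10699 ± 520.3) came next with touching ranges. Pkp3 (5090 ± 590.3) and Pkp1 (2233 ± 420.7), the plakophilins of stratified epithelia, lay lower and did not overlap each other. Dsg2, the desmoglein of simple epithelia, reached 312.0 ± 58.7 per kilobase, which is 0.637% of the Perp level. Dsc2 and Pkp2, best known from heart muscle, were at 39.5 ± 30.4 and 9.53 ± 9.94 per kilobase and overlapped each other.

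The hair cycle table gave nearly the same order, with Perp at 17687 ± 3624 per kilobase (SD, n = 6), Dsp at 8354 ± 1218, Dsc3 at 5921 ± 857.5 and Dsg3 at 5152 ± 369.9. Dsc3 exceeded Dsg3 in 5 of 6 libraries. Jup stood lower in this order than in the other table, at 793.8 ± 115.5 per kilobase, below Pkp3 (891.6 ± 148.2) in 4 of 6 libraries and with overlapping ranges. Pkp1 (413.3 ± 194.4), Dsg2 (109.7 ± 33.8), Dsc2 (14.7 ± 9.70) and Pkp2 (5.68 ± 3.19) followed, and Dsc2 and Pkp2 overlapped. The members together took 1.37% to 1.46% of all normalized counts in control, 1.57% to 1.60% in Eed iKO, 1.19% to 1.39% in anagen and 1.44% to 1.53% in telogen libraries. Dsp alone took 0.60% to 0.77% of all normalized counts in control and 0.85% to 0.90% in Eed iKO libraries. It took 0.51% to 0.63% in anagen and 0.68% to 0.76% in telogen libraries. The sums are not corrected for length and do not describe the members as a set. By normalized count, not corrected for length, Dsp alone ranked between the fifth and the eleventh gene of every library.

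**Figure D1:**
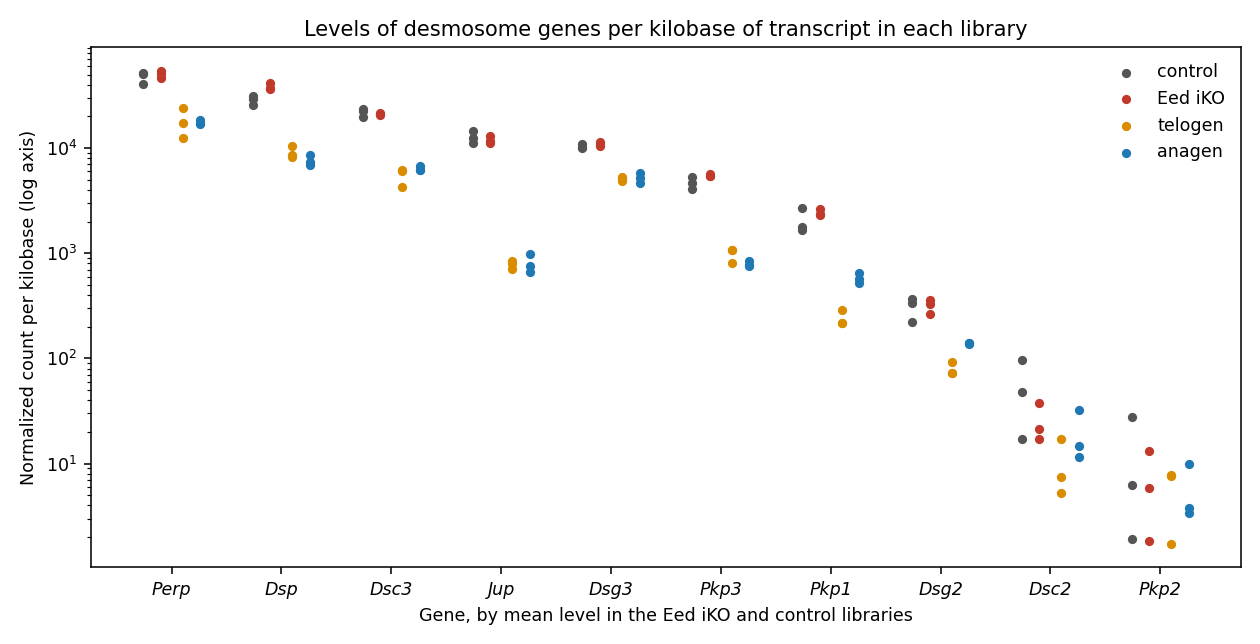
Normalized count per kilobase of transcript (log axis) of each desmosome gene in each library, 3 points per group, with the genes ordered by their mean in the Eed iKO and control libraries. Perp and Dsp are at the top and Dsc2 and Pkp2 at the bottom in all 4 groups, and the tables were normalized separately, so heights compare within a table.

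In the Eed iKO libraries, no desmosome gene passed the test. Dsp, the keratin anchor, came nearest to it, with normalized counts above those of every control library, by 1.33-fold in the mean. Pkp3 also lay above control in every library, by 1.18-fold. The cadherins Dsg3 and Dsc3, plakoglobin and Perp differed by 0.10 or less on the log2 scale. At the thresholds of the methods, a log2 fold change above 1.5 with an unadjusted p under 0.05, 0 of the 10 members passed, where 1.75% of all genes did. Of the 10 members, 0 had an adjusted p under 0.05 by limma, where 0.0267% of all genes tested did, and 1 had an unadjusted p under 0.05, where 14.7% did. The same count was 0 by edgeR (0.0333% of all genes) and 0 by DESeq2 (4.48%) on recovered reads. The log2 fold changes were above 0 in 6 members and below 0 in 4, with a median of 0.064 against -0.001 over all genes.

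Dsp had normalized counts of 279437, 302673 and 249037 in control replicates 1, 2 and 3, and of 360418, 398161 and 348576 in Eed iKO replicates 1, 2 and 3. All 3 Eed iKO libraries were above all 3 control libraries. The means were 277049 ± 26900 and 369052 ± 25900 (SD, n = 3 each), and the log2 fold change was 0.42 (SE 0.19, 95% interval 0.0016 to 0.83, limma adjusted p = 0.338). The adjusted p was 0.192 by edgeR and 0.076 by DESeq2, and the log2 fold change stayed between 0.34 and 0.48 with any 1 library removed. The groups did not overlap in 2 members, Dsp and Pkp3, as in 20.2% of all genes tested.

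Among the armadillo proteins, Pkp3, the plakophilin found most widely in epithelia, had normalized counts of 12048, 13467 and 15507 in control and 15920, 15688 and 16523 in Eed iKO. The Eed iKO libraries were higher with no overlap, but control replicate 3 came close to them. Its log2 fold change was 0.24 (SE 0.14, limma adjusted p = 0.440). Pkp1, the plakophilin whose loss makes human skin fragile, was measured at 8307, 7779 and 12492 in control and at 10917, 12182 and 10868 in Eed iKO. Control replicate 3 exceeded all Eed iKO libraries, and the log2 fold change was 0.28 (SE 0.18, limma adjusted p = 0.496). Jup, shared with adherens junctions, was at 36220, 40103 and 47050 in control and at 36070, 37166 and 41493 in Eed iKO, with overlapping groups. Its log2 fold change was -0.10 with a 95% interval from -0.43 to 0.23 (limma adjusted p = 0.802). Pkp2 rested on 5 to 90 reads per library, with normalized counts from 5.55 to 81.6 in control and from 5.38 to 38.6 in Eed iKO, and its interval from -2.77 to 1.98 on the log2 scale left a difference of either sign undetectable at this depth.

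The 4 cadherin genes lie together on chromosome 18 of GRCm38, in the order Dsc3, Dsc2, Dsg3 and Dsg2, within 643592 bases from 19960930 to 20604521. Dsg3, the desmoglein targeted by antibodies in pemphigus vulgaris, was at 62803, 63853 and 68389 in control and at 68131, 71108 and 64475 in Eed iKO. The groups overlapped, and the 95% interval of the log2 fold change ran from -0.24 to 0.37 around 0.06. Dsc3, its basal partner, was at 70307, 61824 and 73272 in control and at 66690, 64078 and 65888 in Eed iKO. The Eed iKO values fell inside the control range, with an interval from -0.37 to 0.25 around -0.06. Dsg2 was at 1268, 2123 and 1924 in control and at 2086, 1879 and 1514 in Eed iKO, with a log2 fold change of 0.07 (limma adjusted p = 0.922). Dsc2 varied most among cadherins, with normalized counts of 433.6, 76.9 and 214.9 in control and 76.3, 168.7 and 96.9 in Eed iKO, from 71 to 625 reads per library. Its groups overlapped, and the log2 fold change was -0.84 (SE 0.62, limma adjusted p = 0.560). Perp was at 99261, 78663 and 101324 in control and 98226, 105648 and 90597 in Eed iKO. Its log2 fold change was 0.08 (interval -0.28 to 0.44).

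**Figure D2:**
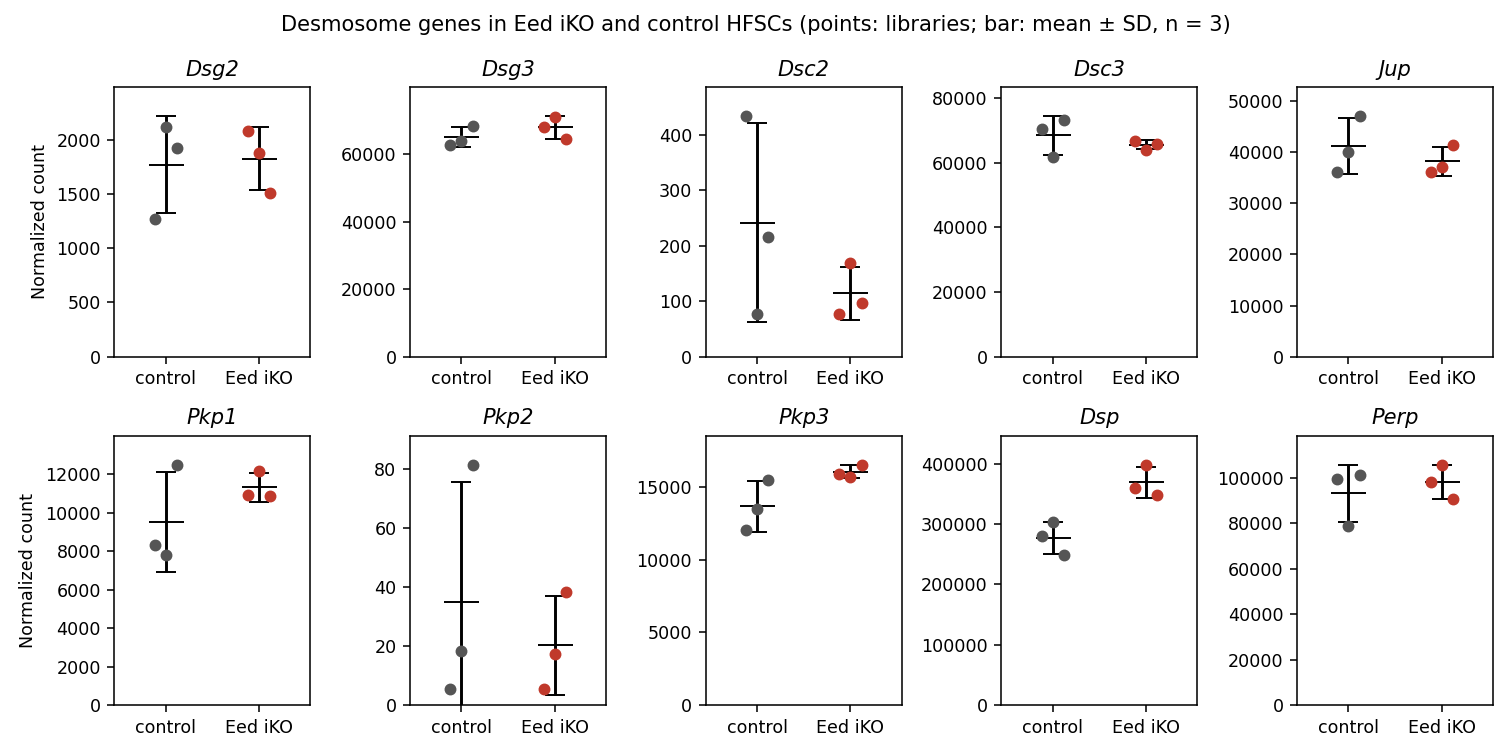
Normalized counts of the 10 desmosome genes (y axes from 0) in control and Eed iKO libraries, with a point per library and the mean ± SD of 3 libraries in black. In Dsp and Pkp3 the Eed iKO points lie above all control points, and in the other 8 genes the groups overlap.

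The 6 tested desmosomal genes outside the members did not pass either, and their values went both ways. Dsc1, the desmocollin of the upper epidermis, was at 1406, 1275 and 1336 in control and at 701.1, 203.2 and 1154 in Eed iKO. All Eed iKO libraries were below control, and the log2 fold change was -1.29 (SE 0.50, limma adjusted p = 0.263), or -0.57 without Eed iKO replicate 2. Cdsn, corneodesmosin of cornified cells, averaged 985.7 ± 254.8 (control) and 461.3 ± 366.7 (Eed iKO, SD, n = 3 each), and its log2 fold change was -1.59 (limma adjusted p = 0.302), or -0.61 without Eed iKO replicate 2, with overlapping groups. Both are markers of upper follicle and interfollicular epidermis, and the summed level of that list of 10 ran from 25159 to 65177 in control and from 23368 to 90193 in Eed iKO, with 4 of the 10 higher in the Eed iKO mean. That list was lowest in Eed iKO replicate 2, the library with the lowest Dsc1, and its part in these values was not tested. The desmogleins Dsg1a, Dsg1b and Dsg1c had log2 fold changes of -0.29, 0.01 and 1.61 and the plakophilin relative Pkp4 of 0.15, with adjusted p of 0.427 or more. Dsg4, the desmoglein of the hair shaft, was below the filter in both tables.

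Proteins that work beside desmoplakin were examined by lists. Of 61 tested genes of other desmosomal proteins, adherens, tight and gap junctions, bulge keratins, and desmosome partners and regulators, 0 passed in the Eed iKO comparison by limma, and 13 had an unadjusted p under 0.05, against 0.0267% and 14.7% of all genes. Envoplakin (Evpl) and periplakin (Ppl), which belong to the same plakin family as desmoplakin and are named because of it after their values were seen, both lay above control in every Eed iKO library. Evpl averaged 3767 ± 1029 (control) and 6076 ± 699.1 (Eed iKO), a log2 fold change of 0.72 (SE 0.20, limma adjusted p = 0.145). Ppl was at 17950 ± 4911 and 28187 ± 1903, a log2 fold change of 0.69 (SE 0.20, adjusted p = 0.156). Krt14, a keratin of basal cells that desmoplakin binds, was at 71955 ± 13620 in control and 126174 ± 13460 in Eed iKO, with no overlap and a log2 fold change of 0.82 (limma adjusted p = 0.104, and 0.049 without Eed iKO replicate 3). Its partner Krt5 was at 563666 ± 55090 and 569041 ± 59790, a log2 fold change of 0.01. In adherens junctions, P-cadherin (Cdh3) had a log2 fold change of 0.56 (adjusted p = 0.174), E-cadherin (Cdh1) of -0.22 (adjusted p = 0.502) and β-catenin (Ctnnb1) of 0.23 (adjusted p = 0.522). Trp63, which encodes p63, had a log2 fold change of -0.13 (adjusted p = 0.765). The 5 proliferation genes summed to 10568, 10392 and 1078 in Eed iKO replicates 1, 2 and 3 and to 1396 to 4162 in control, and Dsp was higher in replicates 1 and 2 than in replicate 3. The log2 fold change of Dsp was 0.46 without Eed iKO replicate 3, and the part of proliferation in it was not tested.

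Between anagen and telogen, Pkp1, a plakophilin, and Dsg2, a desmoglein of low level in HFSCs, rose in anagen. Pkp1 was 2.43-fold and Dsg2 1.77-fold higher there. The members of highest level, Perp, Dsp, Dsc3 and Dsg3, did not pass the test. Of the 10 members, 2 passed the test, both higher in anagen, and 8 did not. This is to be read against all genes tested, of which 11.6% passed, 7.22% being higher in anagen. At the thresholds of the methods, a log2 fold change above 2 with an unadjusted p under 0.05, 0 members and 5.1% of all genes passed. The groups did not overlap in the same 2 members, against 33.3% of all genes. The median log2 fold change was 0.061 for the members and 0.013 for all genes.

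Pkp1 had normalized counts of 1012, 1018 and 1355 in telogen replicates 1, 2 and 3 and of 2672, 3063 and 2459 in anagen replicates 1, 2 and 3. Every anagen library was far above every telogen library. The means were 1128 ± 196.3 and 2731 ± 306.5 (SD, n = 3 each), and the log2 fold change was 1.28 (SE 0.20, 95% interval 0.84 to 1.72, limma adjusted p = 0.00263). The call held with any 1 library removed, with log2 fold changes from 1.20 to 1.42 and adjusted p from 0.00305 to 0.0223, and at 1.21 (adjusted p = 0.00339) without telogen replicate 1.

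Dsg2 was at 529.4, 422.0 and 423.3 in telogen and at 808.0, 798.4 and 812.3 in anagen. The 3 anagen libraries lay close to each other and above all telogen libraries. The means were 458.2 ± 61.6 and 806.3 ± 7.11 (SD, n = 3 each), with a log2 fold change of 0.82 (SE 0.22, 95% interval 0.34 to 1.30, limma adjusted p = 0.035). This call was lost when any of anagen replicates 1, 2 and 3 or telogen replicates 2 and 3 was left out (adjusted p from 0.0624 to 0.137), and it held without telogen replicate 1 (0.0193). The log2 fold change stayed between 0.77 and 0.93 in all of these.

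For the members of higher level the intervals of the log2 fold change included 0. Dsp was at 78651, 99973 and 81908 in telogen and at 65948, 71456 and 82829 in anagen. The groups overlapped, with a log2 fold change of -0.24 (interval -0.68 to 0.19, limma adjusted p = 0.467). Dsg3 was at 30204, 32853 and 31801 in telogen and at 29005, 32528 and 35628 in anagen, and its interval ran from -0.35 to 0.41 around 0.03. Dsc3 was at 13240, 19339 and 18792 in telogen and at 19211, 20964 and 19410 in anagen. Telogen replicate 1 alone was low for Dsc3, and the log2 fold change of 0.23 (limma adjusted p = 0.471) became 0.06 without it. Perp spread widely over telogen (46515, 33591 and 24515) and little over anagen (32874, 33725 and 35926). Its log2 fold change was 0.02 with an interval from -0.49 to 0.53, and 0.25 (limma adjusted p = 0.401) without telogen replicate 1. Jup was at 2252, 2730 and 2515 in telogen and at 2448, 2146 and 3174 in anagen, a log2 fold change of 0.04 (interval -0.40 to 0.48). Without telogen replicate 1 the log2 fold change was -0.31 for Dsp, -0.002 for Dsg3 and -0.037 for Jup.

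Pkp3 went the other way from Pkp1 in its values, at 3142, 3154 and 2383 in telogen and at 2205, 2264 and 2467 in anagen. Telogen replicate 3 fell within the anagen range, and the log2 fold change of -0.31 (SE 0.19) did not pass (limma adjusted p = 0.308). Dsc2 was at 33.7, 76.8 and 23.8 in telogen and at 66.0, 146.0 and 51.6 in anagen. Its groups overlapped, and the log2 fold change was 0.98 with an interval from -0.30 to 2.27 (limma adjusted p = 0.302). Pkp2 was at 22.5, 5.05 and 22.0 in telogen and at 10.97, 9.82 and 29.1 in anagen, with a log2 fold change of 0.09 and an interval from -1.63 to 1.80. Without telogen replicate 1 the log2 fold change was -0.25 for Pkp3, 0.87 for Dsc2 and 0.42 for Pkp2.

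**Figure D3:**
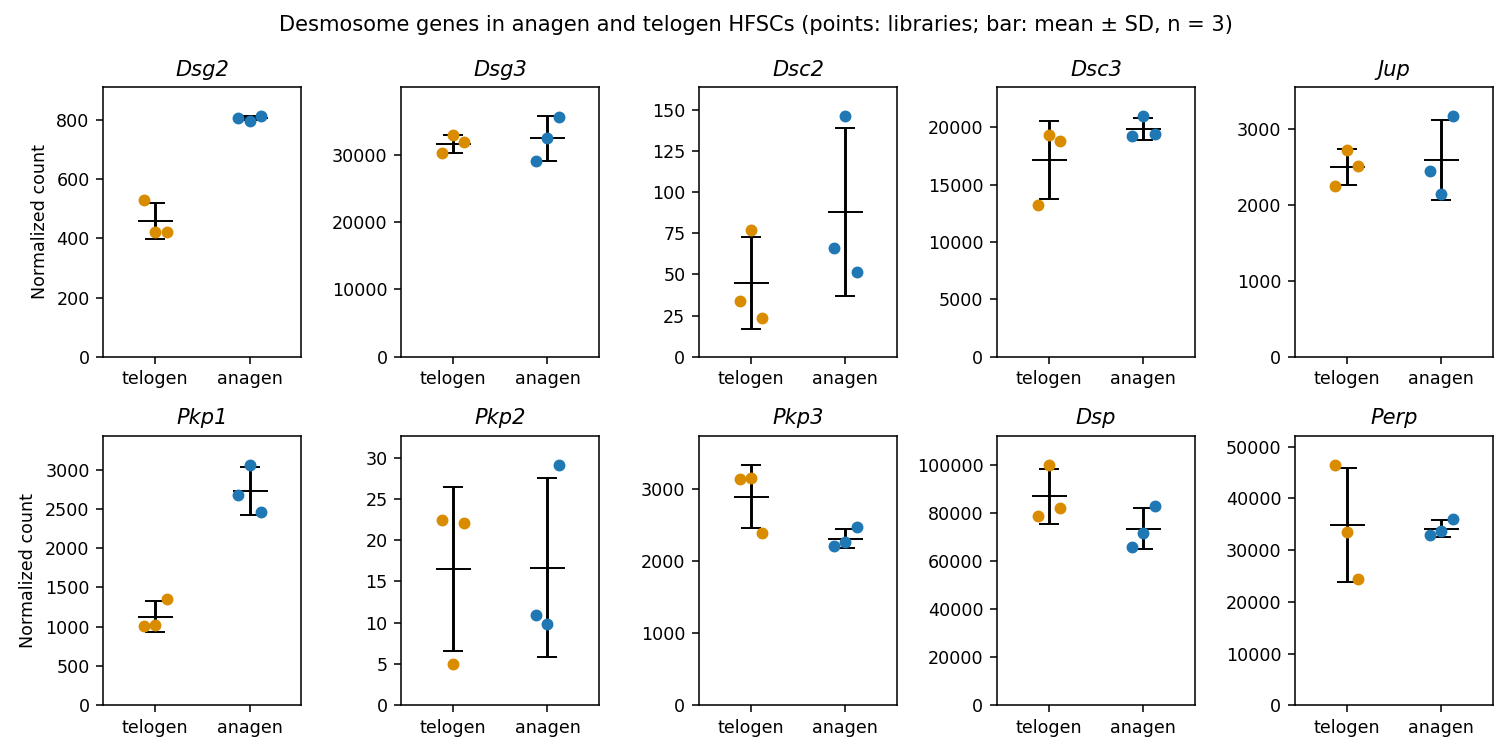
Normalized counts of the 10 desmosome genes (y axes from 0) in telogen and anagen libraries, with a point per library and the mean ± SD of 3 libraries in black. The anagen points lie above all telogen points in Pkp1 and Dsg2, and the groups overlap in the other 8 genes.

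Of the desmosomal genes outside the members, Dsg1b passed as well. It is a copy of the desmoglein 1 gene beside Dsg1a and Dsg1c, whose similar sequences can share reads. It was at 586.3, 510.1 and 458.2 in telogen and at 1039, 1118 and 1031 in anagen, with no overlap. The log2 fold change was 1.04 (SE 0.21, limma adjusted p = 0.0103). That p rose to 0.0561 without anagen replicate 1 and to 0.0625 without anagen replicate 2. Dsg1a (0.33), Pkp4 (0.29), Dsc1 (-0.47) and Cdsn (-0.74) had log2 fold changes that did not pass, and Dsg1c was below the filter. The log2 fold change of Pkp4 was 0.66 without telogen replicate 1 (limma adjusted p = 0.054) and 0.03 without telogen replicate 3.

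Genes of other junctions and of the keratin scaffold were counted beside the desmosome genes. Of the 57 tested genes of these lists, 13 were higher and 2 lower in anagen, against 11.6% of all genes passing and 7.22% higher. Among gap junction genes 5 of 6 rose, led by connexin 43 (Gja1) from 2096 ± 322.7 in telogen to 8396 ± 1706 in anagen (log2 fold change 1.99, limma adjusted p = 0.000167). Gjb2 rose by a log2 fold change of 3.63, and Gjb6 was at 80.5 to 103.0 in anagen and at 0 to 5.76 in telogen. Of 12 adherens junction genes 2 rose, β-catenin (Ctnnb1, 0.72, adjusted p = 0.0178) and vinculin (Vcl, 0.74, adjusted p = 0.0413). The call of Ctnnb1 was lost without any of the anagen libraries (adjusted p from 0.0626 to 0.101), and that of Vcl in all removals but that of telogen replicate 3 (0.0526 to 0.163). Cdh3 (1.10, adjusted p = 0.0649) and Cdh1 (0.66, adjusted p = 0.0834) did not pass, and without telogen replicate 1 the log2 fold change of Cdh1 was 0.40 and that of Cdh3 was 0.60 (adjusted p = 0.0467), and without telogen replicate 3 its adjusted p was 0.0414. Of 10 tested tight junction genes 0 passed by limma, and 0 had an unadjusted p under 0.05.

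Of 9 tested keratins, Krt17 (log2 fold change 2.54, limma adjusted p = 0.000044) and Krt16 (2.66, adjusted p = 0.00155), keratins of activated keratinocytes, rose and Krt24 fell (-1.02, adjusted p = 0.0284). Krt5 (0.79, adjusted p = 0.184) and Krt14 (0.83, adjusted p = 0.0622) did not pass, although Krt14 did without telogen replicate 2 (0.0285). Krt5 was far lower in telogen replicate 1 (50461) than in telogen replicates 2 and 3 (155865 and 131957), and without it the log2 fold changes were 0.29 for Krt5 and 0.60 for Krt14. The call of Krt24 was lost without anagen replicates 1 or 2 or telogen replicates 2 or 3 (0.0677 to 0.134). Of 15 desmosome partners and regulators, 3 rose and 1 fell. Prkca, a kinase that acts on desmosome adhesion, had a log2 fold change of 1.41 (adjusted p = 0.0121), Trp63 of 0.91 (adjusted p = 0.00935) and Evpl of 0.78 (adjusted p = 0.0286). Perp, a target of p63, had a log2 fold change of 0.02 (interval -0.49 to 0.53) in the same libraries. It was 0.25 without telogen replicate 1 and -0.21 without telogen replicate 3, and a link between Trp63 and Perp was not tested. Tgm5, a crosslinking enzyme of the cell envelope, fell (-0.71, adjusted p = 0.0333). The call of Trp63 was lost without anagen replicate 2 (0.0548), and that of Prkca without anagen replicates 2 (0.072) or 3 (0.0503). Those of Evpl and Tgm5 were lost without any anagen library or telogen replicate 2, and that of Tgm5 also without telogen replicate 3 (0.0549 to 0.153).

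Other cell types and cell division moved with the same contrast. The proliferation genes summed to 676.6 to 829.3 in telogen and 16764 to 28045 in anagen, and Mki67 rose by 5.10 on the log2 scale. Melanocyte markers (5 of 5 found, none at 0 throughout) summed to 81.3 to 159.6 in telogen and 437.0 to 802.8 in anagen. Immune markers (6 of 7 found, 2 of them with a higher mean in anagen) summed to 155.9 to 432.3 and 132.6 to 149.7, with no overlap in either list. The summed markers of upper follicle and interfollicular epidermis, cells in which Pkp1 is abundant, overlapped between the groups (12812 to 21288 in telogen and 10301 to 18608 in anagen). Of these 10 markers, 2 had a higher mean in anagen. The sums of fibroblast (5 of 5 found), endothelial (3 of 3, Cdh5 at 0 throughout) and matrix and inner root sheath markers (7 of 7) overlapped, but single markers moved. Matrix and inner root sheath markers passed as higher in anagen for Krt27 (log2 fold change 4.09), Krt25 (3.25) and Tchh (3.07) and as lower for Msx2 (-1.60). Of the fibroblast markers, Col1a1 (2.06) and Dcn (4.05) rose, and only 3 of the 5 had a higher mean in anagen. The part of these cells and of proliferation in the values of Pkp1 and Dsg2 was not tested.

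**Figure D4:**
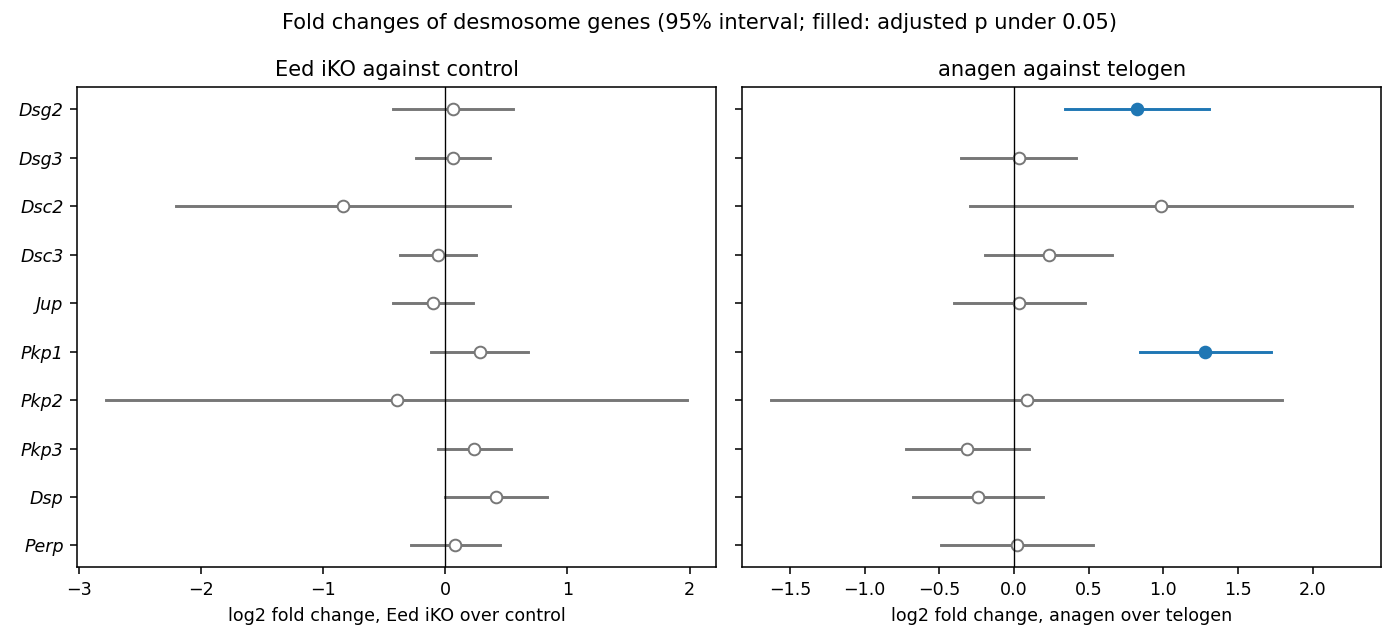
Log2 fold change (x axes) of each desmosome gene with its 95% interval, Eed iKO over control on the left and anagen over telogen on the right, from limma on 3 libraries per group. Filled points passed at an adjusted p under 0.05, which are Pkp1 (1.28) and Dsg2 (0.82) on the right and none on the left, where the intervals of Dsc2 and Pkp2 are widest.

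Ratios of related genes within a library cancel the scaling that all genes of that library share, and they are given as log2 values without a test. Among plakophilins, Pkp1/Pkp3 was -1.63, -1.63 and -0.81 in telogen and 0.28, 0.44 and -0.005 in anagen. The ratio, which is not corrected for transcript length, was higher in every anagen than in every telogen library, and the difference of the means was 1.60. Control (-0.54, -0.79 and -0.31) and Eed iKO (-0.54, -0.37 and -0.60) overlapped in this ratio.

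Among desmogleins, Dsg3/Dsg2 was 5.83, 6.28 and 6.23 in telogen and 5.16, 5.35 and 5.45 in anagen, with no overlap. Per kilobase, Dsg3 remained far above Dsg2 in every library of both tables. The Eed iKO ratio averaged 5.23 ± 0.19 and the control ratio 5.23 ± 0.37 (SD, n = 3 each). Dsc3/Dsc2 overlapped in both comparisons, with differences of 0.78 (Eed iKO minus control) and -0.75 (anagen minus telogen). Pkp2/Pkp1 overlapped too, with differences of -0.68 and -1.20.

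Dsp/Jup, the keratin anchor over the protein that holds it, was 2.95, 2.92 and 2.40 in control and 3.32, 3.42 and 3.07 in Eed iKO. All Eed iKO libraries were above all control libraries, by 0.52 in the mean. In telogen (5.13, 5.19 and 5.03) and anagen (4.75, 5.06 and 4.71) the groups overlapped. Jup/Ctnnb1, the armadillo protein of desmosomes over that of adherens junctions, was -2.61, -2.29 and -2.38 in telogen and -3.27, -3.24 and -2.82 in anagen, lower in anagen with no overlap. Control and Eed iKO overlapped in this ratio, with means of 0.58 ± 0.26 and 0.26 ± 0.36.

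**Figure D5:**
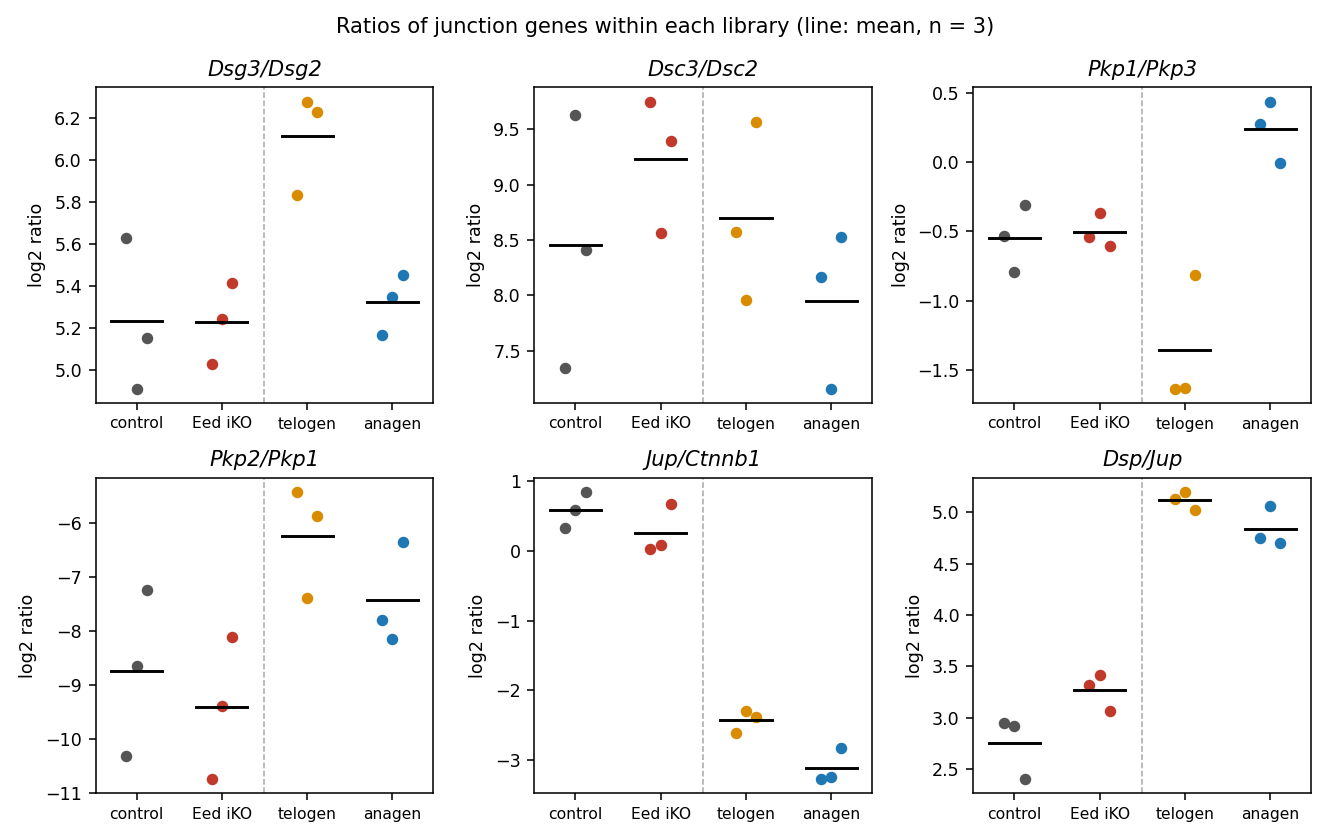
Log2 ratio of the normalized counts of 2 genes in each library (y axes), with 3 points and a mean line per group, and a dashed line between the separately normalized tables. Pkp1/Pkp3 is higher and Dsg3/Dsg2 and Jup/Ctnnb1 are lower in anagen than in telogen, and Dsp/Jup is higher in Eed iKO than in control, each with no overlap.

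Correlations between members over the libraries differed widely from pair to pair. Over the 6 libraries of the Eed iKO table, Pearson's r between 2 members ran from -0.691 (Dsg2 and Dsc2) to 0.947 (Jup and Pkp2), with a median of 0.235 over 45 pairs. Over the 6 libraries of anagen and telogen HFSCs it ran from -0.868 (Pkp1 and Pkp3) to 0.906 (Pkp1 and Dsg2), with a median of 0.071. The genes whose values were most like the mean z-score of the members were Baz1a (r = 0.982), Hdac11 (r = 0.978) and Rita1 (r = 0.978) among 11638 genes of the Eed iKO table. For anagen and telogen they were Dusp7 (r = 0.986), Itm2c (r = 0.980) and Ppp3r1 (r = 0.976) among 9136 genes. These correlations rest on 6 libraries that share groups and scaling, and they are given as a description. Pkp2 and Dsc2 rest on few reads, and no r over pairs of other genes is given beside the medians.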

How the data were processed

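RNA-seq was performed on 12 libraries of FACS-purified HFSCs, grouped by their labels. Per the study's methods, RNA was amplified with the Ovation kits, reads were aligned with kallisto (0.42.5) to Gencode vM20 transcripts, and protein-coding genes were compared with DESeq2. The deposited signal per gene is a normalized count. In the Eed iKO table the values fit a single size factor per library. Whether the hair cycle table was scaled by a single factor per library is not known. The authors' fold changes and p-values in the tables were not used. Whole reads could be had from the Eed iKO table (100% of values were whole multiples within 0.01) but not from the hair cycle table (27.3% to 31.0%). Log2(value + 1) was tested with limma 3.58.1 (intensity trend, two-sided, Benjamini-Hochberg over all genes), after filterByExpr of edgeR at a minimum of 10, which kept 15008 and 13457 genes. This scale understates changes of low genes. Each table was tested on its own. edgeR 4.0.16 and DESeq2 1.42.0 were run on recovered reads. Alternatives were pseudocounts of 0.1 and 10, no filter, a replicate block, TMM scaling, no trend, each library left out, and the thresholds of the methods. Those thresholds were a log2 fold change above 1.5 or 2 with unadjusted p under 0.05. The study's volcano plot names instead an absolute fold change of at least 1.5 with an adjusted p under 0.05, a pair not used here. For its Eed iKO and control RNA-seq the study states biological replicates from at least 2 litters, so replicates may share a litter. For anagen and telogen it gives a number of animals but no litters. Libraries are not tied to litters in either. The fit was tested on simulated data.

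The members, lists and named genes were chosen with earlier results of these data known. Named were all members, the targeted gene, the other desmosomal genes, of each list up to 4 genes with an adjusted p under 0.05 in either comparison, and Ctnnb1, Cdh1, Cdh3, Krt5, Krt14 and Trp63. The values of a gene that this rule names are left out. Coordinates and transcript lengths come from GENCODE vM21 (GRCm38), whose identifiers matched for all 10 members, and promoters from RefSeq.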

Additional observations from a re-analysis of the deposited data

How the results depend on the processing

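With each alternative, 0 of the 10 desmosome genes passed in the Eed iKO comparison. Between anagen and telogen, 2 passed (11.6% of all genes), and 0 at the thresholds of the methods (5.1%). Without an intensity trend 1 (Pkp1) passed, and 1 to 2 when a library was left out. The median log2 fold change of the members in that comparison ran from -0.03 to 0.18 when a library was left out. Of the junction, keratin and partner lists, 0 genes passed in the Eed iKO comparison (0.0267% of all genes). With DESeq2 on recovered reads 5 passed (4.48% of all genes), and at the thresholds of the methods 2 (1.75%). When a library was left out 0 to 2 passed, the 2 being without Eed iKO replicate 3. In the hair cycle 15 passed (11.6% of all genes), and 5 at the thresholds of the methods (5.1%). Without a trend 7 passed, and 7 to 15 when a library was left out, with 8, 7 and 9 without anagen replicates 1, 2 and 3. For the fit without a trend, the removals and the replicate block of the hair cycle, the shares of all genes are not given here. Those counts are therefore not read as results about the members or lists. The cause of the differing counts was not tested.

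Small log2 fold changes turned sign when a library was left out. In the Eed iKO comparison the ranges were -0.19 to 0.002 for Jup, -1.27 to 0.56 for Pkp2, -0.16 to 0.21 for Dsg2, -0.034 to 0.149 for Perp, -0.17 to 0.10 for Eed, -0.78 to 0.19 for Dsg1a, -0.20 to 0.25 for Dsg1b and -0.071 to 0.092 for Krt5. For Eed the values were 0.005 by edgeR and 0.002 by DESeq2, and for Dsg1b -0.024 and -0.028. In the hair cycle the ranges were -0.12 to 0.16 for Jup, -0.56 to 0.42 for Pkp2, -0.041 to 0.107 for Dsg3 and -0.21 to 0.25 for Perp.

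Replicate numbers did not pair the libraries: the deviations of same-numbered libraries correlated at 0.039, 0.068 and 0.193 in the Eed iKO table and at -0.035, -0.071 and -0.029 in the hair cycle table. With the replicate number as a block, 0 members passed in the Eed iKO comparison (list genes 5, with Krt14 at an adjusted p of 0.009, Evpl at 0.0225 and Ppl at 0.0391 among them, and all genes 424 against 4) and 1 in the hair cycle, where Dsg2 had an adjusted p of 0.0778. DESeq2 called 673 genes of the Eed iKO table. edgeR and DESeq2 were not run on the hair cycle table, whose reads could not be recovered. Depth limits Pkp2 and Dsc2, which rest on 5 to 90 and 71 to 625 reads per library in the Eed iKO table.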

Other observations

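Plakoglobin stood at different heights in the separately normalized tables, seen from ratios within a library. Jup/Ctnnb1 was between 0.03 and 0.84 on the log2 scale in the control and Eed iKO libraries and between -3.27 and -2.29 in the anagen and telogen libraries. Dsp/Jup was between 2.40 and 3.42 in the former and between 4.71 and 5.19 in the latter. The libraries of the tables differ in age and were normalized separately, and no test was made across them.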
